A study of Mus musculus with 3 samples.

Results

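Mitochondrial ribosomal protein (MRP) genes are nuclear genes whose products are imported into mitochondria and built into the mitochondrial ribosome. The Mrpl genes encode its large subunit and the Mrps genes its small subunit. They were taken by symbol, as protein-coding genes named Mrpl or Mrps followed by a digit and with more than 1 exon in the mm9 annotation. This gave 76 of 22367 protein-coding genes, 47 of the large and 29 of the small subunit, on 17 chromosomes. A further 1 gene with such a symbol and 1 exon was left out.

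The study mapped the transcription factors FLI1 and RUNX1 by chromatin immunoprecipitation and sequencing (ChIP-seq) in mature mouse megakaryocytes (MK_Mat), the large cells that shed platelets. Wild-type CD1 fetal liver cells, labelled as embryonic day 15, were cultured for 5 days in thrombopoietin, depleted of cells positive for TER119, GR1 or CD11b and passed over albumin gradients. There was 1 FLI1 library of 62955089 reads, 1 RUNX1 library of 3975705 reads and 1 input library of 22477167 reads without immunoprecipitation. The study's methods give at least 3 pooled precipitates for sequencing and do not state pooling for the input. These are the reads in the files analysed: the study lists more mapped tags for both antibodies, and for RUNX1 the file holds only a small part of them. The study's methods keep 1 read per position, and the FLI1 and RUNX1 files hold 0 repeated positions; whether that accounts for the smaller RUNX1 number was not tested. The RUNX1 depth given here is that of the file. There are no replicates, no test between libraries can be made, and every interval below covers counting error alone.

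The mitochondrial ribosome translates the few proteins that mitochondrial DNA encodes, which are subunits of the respiratory chain and of ATP synthase. All of its proteins come from the nucleus, so their genes depend on nuclear transcription factors. Promoters of nuclear genes for mitochondrial proteins are known for sites of NRF1 and of GABP, a member of the ETS family. FLI1 is another ETS factor, required for normal megakaryocyte development, and ETS proteins share a DNA motif with the core GGAA. RUNX1 is a Runt-domain factor that binds a different motif.

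At MRP gene starts FLI1 was high and narrowly placed, with the highest point of coverage (the summit) usually close to the transcription start site (TSS), and many summits lay beside ETS letters. The letters searched were CCGGAAG on either strand, within 50 bp of the summit. They were found at 25 of 76 members (32.9%), against 11.2% of all protein-coding genes and 19.7% of those with a CpG-rich start. Gene groups of like housekeeping roles had shares of 34.0% (proteasome subunits), 32.5% (cytosolic ribosomal proteins), 29.5% (other mitochondrial translation genes) and 24.1% (nuclear respiratory chain), from slightly above the MRP genes to below them. Sequences at the summits are given for the 4 members with these letters among the 10 with the highest FLI1 ratio, since they show where the letters sit. Each is on the gene's strand, 5′ to 3′, from mouse build mm9, with CCGGAAG or its complement CTTCCGG in capitals.
Mrpl40, chr16:18877310-18877338, minus strand: cccgggcaacgCCGGAAGtcacggcgcgc
Mrpl3, chr9:104955552-104955598, plus strand: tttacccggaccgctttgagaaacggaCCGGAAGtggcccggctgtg
Mrps35, chr6:146991232-146991292, plus strand: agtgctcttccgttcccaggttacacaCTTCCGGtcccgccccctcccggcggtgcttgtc
Mrpl52, chr14:55045672-55045732, plus strand: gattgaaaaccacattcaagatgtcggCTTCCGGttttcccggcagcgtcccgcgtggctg

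In these 4 sequences the letters lay 43, 27, 18 and 9 bp from the FLI1 summit, in the order shown. The members were chosen for letters within 50 bp of the summit, so these distances were limited in advance. At Mrpl40 the letters were centred at −464 bp from the TSS and all 29 bases shown lie in an exon of the neighbouring gene Hira, whereas at Mrpl52 they were 44 bp upstream and none of the bases is exonic. Mrpl3 carried them 13 bp downstream of the TSS, inside the first bases of the gene.

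The members in ranks 11 to 20 by FLI1 ratio that had the letters are shown next, a set chosen after the values were seen, because the spacing to the TSS was short in each.
Mrps34, chr17:25032031-25032087, plus strand: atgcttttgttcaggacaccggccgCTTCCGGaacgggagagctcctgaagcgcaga
Mrps21, chr3:95675413-95675446, minus strand: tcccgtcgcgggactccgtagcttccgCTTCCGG
Mrpl20, chr4:155177641-155177674, plus strand: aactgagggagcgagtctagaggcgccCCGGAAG
Mrps22, chr9:98502076-98502136, minus strand: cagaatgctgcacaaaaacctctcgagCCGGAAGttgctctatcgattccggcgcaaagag
Mrpl18, chr17:13109180-13109208, minus strand: aactgaaaacgCCGGAAGtagggggctgc
Mrps18c, chr5:101227598-101227652, plus strand: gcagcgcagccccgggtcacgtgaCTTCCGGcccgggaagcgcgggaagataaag
Mrps18a, chr17:46247900-46247960, plus strand: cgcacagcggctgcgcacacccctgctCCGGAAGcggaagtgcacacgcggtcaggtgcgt

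Their letters ran from 21 bp upstream (Mrps18c) to 26 bp downstream (Mrps21 and Mrpl20) of the TSS, and from 4 bp (Mrps21) to 41 bp (Mrps18c) from the summit. Both ranges were limited by how this set was chosen and are no result about the members. For the 2 members with the lowest FLI1 ratio, which had no such letters within 50 bp of the summit, a stretch just upstream of the TSS is given. These stretches are not at the summit and so are not matched in position to those above. Members with high ratios also lacked the letters, among them the 3 highest, Mrpl48, Mrpl1 and Mrpl47.
Mrps25, chr6:92134028-92134087, minus strand: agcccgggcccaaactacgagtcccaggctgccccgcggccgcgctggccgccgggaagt
Mrps24, chr11:5615699-5615728, minus strand: aaaacatccagcagctcattgagctgctgc

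For Mrps25 the 60 bases end at the base before the TSS, and for Mrps24 the 30 bases lie in an exon of another gene, Urgcp. Mrps24 had 1 copy of CCGGAAG between 250 bp upstream and 50 bp downstream of its TSS, outside the stretch given, and its summit lay 557 bp downstream of the TSS. The TSS used for Mrps24 is the 5′ end of its gene record, which is not an annotated coding start. A match is a description of the letters and does not show that FLI1 was bound to them.

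Reads were counted within 1 kb of each TSS, taken as the 5′ end of the gene record, and scaled to the depth of the library. The FLI1 ratio is the scaled FLI1 count divided by the scaled input count. Each library averages over many cells, so the share of cells with FLI1 at a site and its strength in a cell cannot be told apart. At the genome-wide rate a window would hold 49.2 FLI1, 3.11 RUNX1 and 17.0 input reads. Every one of the 76 members passed the minimum of 3 input reads. FLI1 reads per member window ran from 75 to 438 (median 174.5), input reads from 10 to 36 (median 20.5) and RUNX1 reads from 0 to 19 (median 7). FLI1 was thus read with usable precision gene by gene, and RUNX1 mainly as a sum over genes.

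Megakaryocyte genes gave a check of the libraries. FLI1 was 8.84-fold over input at Itga2b, which encodes the platelet integrin αIIb, and 7.35-fold at Pf4, a platelet chemokine. Of 8 megakaryocyte markers, 5 reached 2-fold, against 37.3% of all genes tested and 16.6% of starts without CpG richness. No marker in this check has a CpG-rich start. The ratio was 1.01 at Ppbp and 0.87 at Vwf, both of which are expressed in megakaryocytes. These values are for the 5′ end of the gene record. Vwf has further annotated coding starts inside the record. At those 6174 and 6189 bp further in the ratio was 1.18, with 150 FLI1 and 44 input reads, both above the genome-wide rates. The study lists a FLI1 site close to the Vwf start that it used, so these ratios do not show that Vwf lacks FLI1. Of the markers of other cells, 0 of 3 erythroid, 1 of 3 granulocyte or macrophage (Mpo, 4.78) and 0 of 2 hepatocyte genes reached 2-fold. With 2 or 3 genes each, these counts cannot be told apart from the shares over all genes. RUNX1 reached 2-fold at 4 of the 8 megakaryocyte markers, against 29.2% of all genes and 15.3% of starts without CpG richness. Its summed ratio at the 8 was 1.96 (1.49 to 2.56), against 1.14 at starts without CpG richness. The value for CpG-rich starts, a class that holds 0 of the 8, was 1.97. The part of residual cells in the results below was not tested.

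FLI1 was at least 2-fold over input at 58 of 76 MRP gene starts (76.3%), against 37.3% of the 21486 protein-coding genes tested and 61.6% of the 9876 with a CpG-rich start. The median ratio of the members was 3.16, against 1.46 over all genes and 2.47 over CpG-rich starts. All 76 members had more FLI1 than input after scaling to depth. Below input were 6851 of 21486 genes tested, 1071 of 9876 with a CpG-rich start and 0 of 44 other mitochondrial translation genes. Of the members, 70 were above the median of all genes and 48 above the median of CpG-rich starts. The 95% counting interval of the ratio lay above 1 at 67 of 76 members (88.2%), against 43.4% of all genes and 70.6% of CpG-rich starts. At 3-fold, 39 members (51.3%) were called, against 22.5% of all genes and 39.3% of CpG-rich starts.

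**Figure D1:**
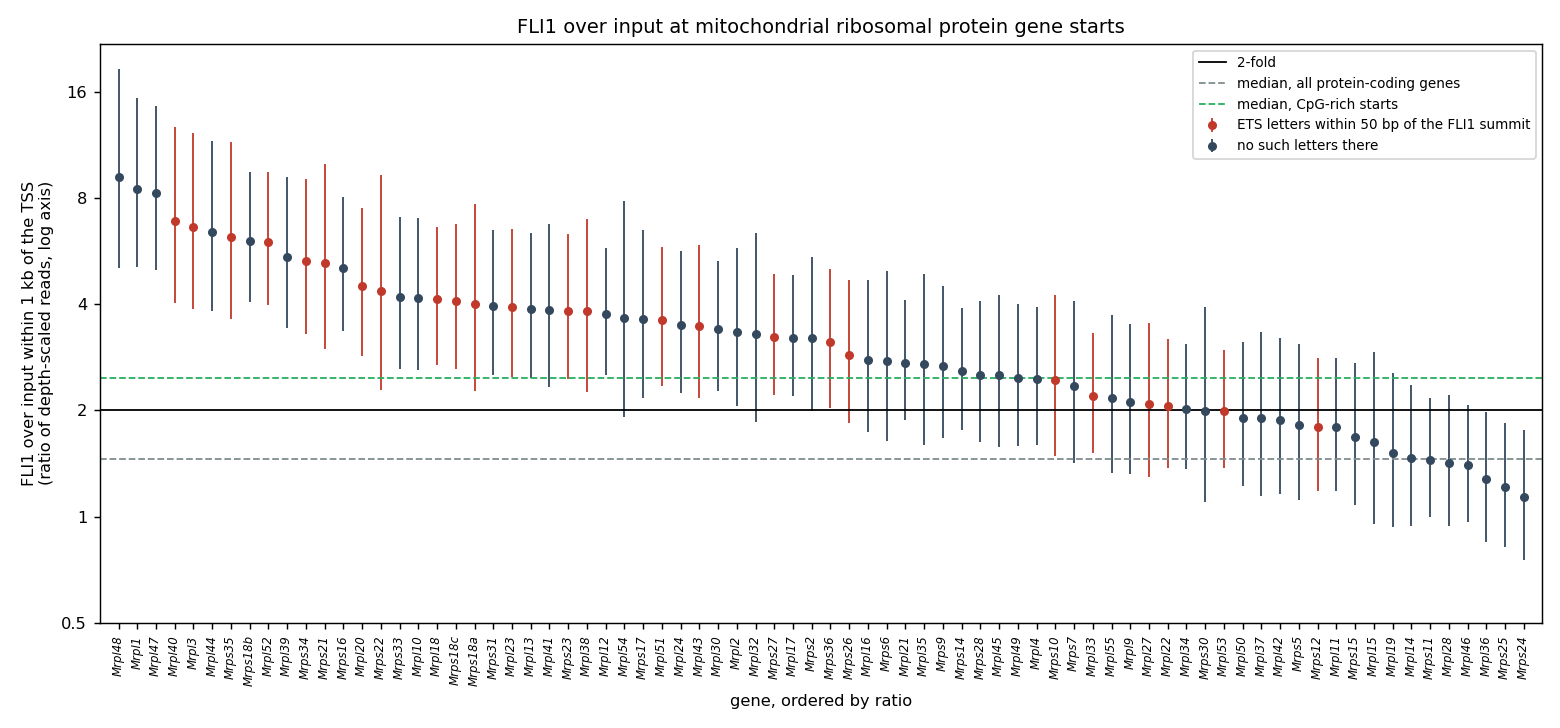
FLI1 over input within 1 kb of the TSS for each of the 76 MRP genes, ordered by ratio on a log axis; points are ratios of depth-scaled reads, bars are 95% exact counting intervals, and colour marks ETS letters within 50 bp of the summit. Ratios run from 9.20 at Mrpl48 to 1.14 at Mrps24, and 58 of the 76 points lie at or above the 2-fold line.

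The highest ratio was at Mrpl48, with 293 FLI1 reads and 11 input reads (9.20-fold, 95% interval 5.07 to 18.6). Its summit lay 913 bp inside the gene record and 26 bp from a start of Rab6, a Golgi GTPase gene on the same stretch. At the start of Mrpl48's own coding transcript, 25222 bp further in, the ratio was 3.29. The reads counted for Mrpl48 can therefore not be told apart from those at the Rab6 start.

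Mrpl1, which encodes the protein of the mobile stalk beside the ribosome's exit site, had 369 FLI1 and 15 input reads (8.50-fold, 5.09 to 15.3). Its summit was 610 bp downstream of the TSS and 12 bp from another annotated start of Mrpl1 itself. Mrpl47 followed with 382 FLI1 and 16 input reads (8.25-fold, 5.01 to 14.6), and its summit was 38 bp from the start of Ndufb5, a gene for a subunit of respiratory complex I.

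Mrpl40 had 279 FLI1 and 14 input reads (6.88-fold). It shares its promoter region with Hira, a histone chaperone gene that starts 270 bp away on the opposite strand. Mrpl3, whose product lies near the peptidyl transferase centre, had 268 FLI1 and 14 input reads (6.61-fold) and only 1 RUNX1 read. Mrpl44, which encodes a protein with a ribonuclease III-like fold, had 279 FLI1 and 15 input reads (6.43-fold), and its summit coverage was 50.1 times the genome-wide mean.

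The remaining members of the highest 10 were Mrps35 (252 FLI1 and 14 input reads, 6.22-fold), Mrps18b (438 and 25, 6.05-fold), Mrpl52 (417 and 24, 6.002-fold) and Mrpl39 (300 and 19, 5.45-fold). Mrps18b and Mrpl52 had the most FLI1 reads of all members. Their larger input counts gave narrower intervals, 4.05 to 9.46 for Mrps18b and 3.98 to 9.48 for Mrpl52. The intervals of all 10 overlap, so their order among themselves is not resolved by these counts. Among the 76 members the ratio was related to the input count (Spearman's rho −0.53 over 76 genes), which stands on both sides of that relation. FLI1 reads and input reads gave a rho of 0.02. The 7 highest members all had 11 to 16 input reads, fewer than the median of 20.5.

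At the other end were Mrpl28 (119 FLI1 and 29 input reads, 1.42-fold), Mrpl46 (146 and 36, 1.401-fold), Mrpl36 (111 and 30, 1.28-fold), Mrps25 (116 and 33, 1.21-fold) and Mrps24 (102 and 31, 1.14-fold). The counting intervals of all 5 include 1, for example 0.75 to 1.76 at Mrps24. Their FLI1 counts were still above the genome-wide rate of 49.2, and their input counts were above the rate of 17.0. The annotated coding start of Mrps24 with the most FLI1 reads lies 7993 bp inside the gene record, where 92 FLI1 and 18 input reads gave a ratio of 1.77. At Mrpl33, 204 FLI1 and 32 input reads gave 2.20 at the gene record, and 157 and 12 gave 4.52 at a start 17004 bp further in. In both genes the inner start had fewer FLI1 reads and a higher ratio, with fewer input reads. As at Mrpl48, the 5′ end of the gene record, taken as the TSS, is not an annotated coding start in either gene. Their values at the TSS are therefore not values at a coding start.

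The line at 2-fold cut through a dense part of the range. Mrpl34 was just above it at 2.02 (1.36 to 3.08), and Mrps30 and Mrpl53 were just below at 1.99. Of the members under the line, Mrpl53 and Mrps12 had CCGGAAG within 50 bp of the summit. Mrps12, a protein of the decoding site, had 140 FLI1 and 27 input reads (1.79-fold), and it starts 171 bp from Sars2, the mitochondrial seryl-tRNA synthetase gene, on the opposite strand. Mrps12, Mrpl11, Mrpl19, Mrpl46 and Mrps24 were the 5 members under the line without a CpG-rich start.

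FLI1 values of the ribosome's subunits lay side by side. FLI1 reached 2-fold at 36 of 47 large-subunit genes (median 3.21) and at 22 of 29 small-subunit genes (median 3.12). Members numbered after a bacterial ribosomal protein had 34 of 44 called and a median of 2.75. Members with higher numbers, which are mostly proteins without a bacterial counterpart, had 24 of 32 called and a median of 3.54. The middle ranges of the last pair overlapped widely, from 2.05 to 3.88 for the bacterial-numbered members and from 2.12 to 4.59 for the others (25th to 75th percentile).

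CpG-rich starts, here with at least 55% GC and an observed over expected CpG of at least 0.6 within 250 bp of the TSS, are typical of genes used in many cell types. They made up 55 of the 76 members (72.4%), against 44.5% of all protein-coding genes. FLI1 was called at 42 of these 55 (median 3.21), and at 16 of the 21 other members (76.2%, median 2.70). Over all genes without a CpG-rich start, 16.6% were called and the median was 1.00, but these are unlike starts. The median observed over expected CpG was 0.744 in the 21 members and 0.262 in all such genes. In a split added after the data were seen, 13 of the 21 passed the CpG limit and missed only that on GC. Of these 13, FLI1 was called at 11 (84.6%, median 3.49), against 62.1% of the 998 genes tested in the same class (median 2.58). Of the 8 members under the CpG limit, FLI1 was called at 5 (median 2.11), against 12.3% of all genes under it (median 0.96). CpG was measured at the 5′ end of the gene record, and the summit lay within 100 bp of it at 4 of these 8. For Mrpl33 and Mrps24 that end is not an annotated coding start. How CpG-rich the coding starts of these 8 are was not tested.

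Some MRP genes sit beside another gene. In 29 of 76 windows there was a start of another protein-coding gene, so those reads cannot be assigned to 1 gene. The share of such windows over all genes was not counted. A divergent partner, starting on the opposite strand within 1 kb upstream, was present at 16 members (21.1%), against 7.15% of all genes and 12.5% of CpG-rich starts. FLI1 was called at 12 of these 16 (median 3.50) and at 46 of the 60 others (median 2.77). Over all CpG-rich starts with a divergent partner, 80.8% were called and the median was 3.23, so the members with a partner were not above that class in the share called. The closest partners lay at 3 bp (Mrps21), 27 bp (Mrps18c with Helq, a DNA helicase gene) and 29 bp (Mrps34 with Eme2, an endonuclease subunit gene). Mrps11 and Mrpl46 are members that start 412 bp apart whose windows overlap, with 147 and 146 FLI1 reads. Among the 47 members with no other start in the window, a split added after the data were seen, 36 (76.6%) reached 2-fold. Their median ratio was 2.78, against 3.16 over all 76 members and 2.47 over CpG-rich starts.

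FLI1 summits were concentrated at the TSS. The summit lay within 100 bp of the TSS at 57 of 76 members, against 31.0% of all genes and 41.8% of CpG-rich starts. The other groups were at 72.7% (other mitochondrial translation), 70.1% (respiratory chain), 68.7% (cytosolic ribosome) and 30 of 50 genes (proteasome). The median distance was 41 bp, against 278 bp over all genes and 144 bp over CpG-rich starts. Counting every annotated coding start of any gene, 64 members had one within 100 bp of the summit. For 13 members the nearest such start belonged to another gene, including Tcp1 (6 bp) for Mrpl18, Ighmbp2 (14 bp) for Mrpl21 and Zfp189 (3 bp) for Mrpl50. The counts from every annotated coding start were made for the members only, without a background.

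Summit height also stood above the background. Coverage by FLI1 reads extended to 150 bp reached a median of 18.2 times the genome-wide mean at the members, against 3.79 over all genes and 9.76 over CpG-rich starts. It was 22.8 times for cytosolic ribosomal protein genes, 18.02 for other mitochondrial translation genes and 15.7 for both the proteasome and the respiratory chain. At least 20 times was reached by 36 of 76 members, against 14.2% of all genes, and at least 30 times by 17, against 6.49%. The highest summits were those of Mrpl52 (52.0 times), Mrpl39 (51.8), Mrpl44 (50.1) and Mrpl12 (48.5). Mrpl12, a protein of the ribosomal stalk, was only 3.75-fold over input across the window, with 293 FLI1 and 27 input reads.

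**Figure D2:**
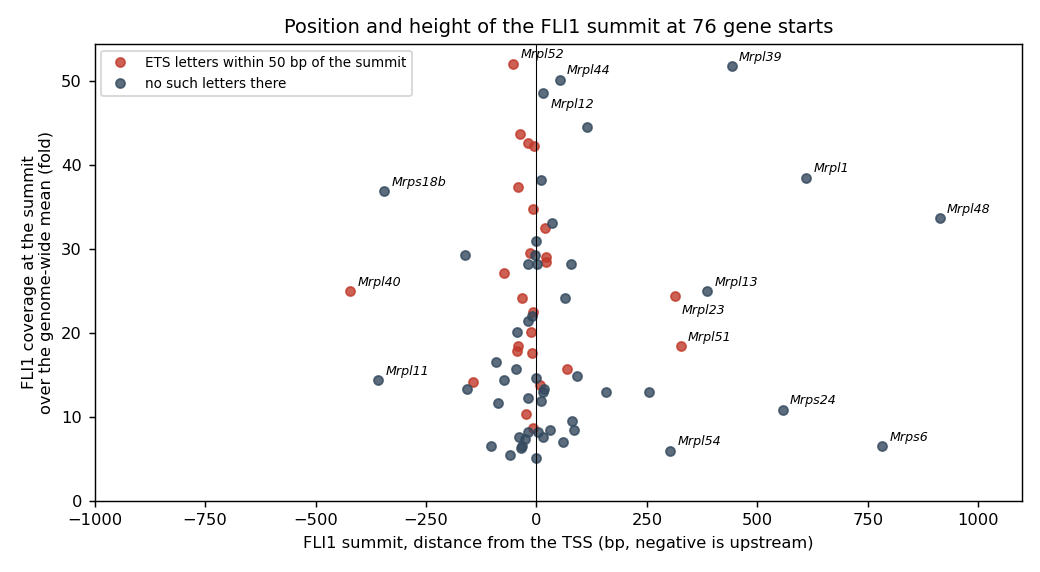
Position of the FLI1 summit relative to the TSS (bp, negative is upstream) against FLI1 coverage at the summit over the genome-wide mean, 1 point per MRP gene, coloured by ETS letters within 50 bp of the summit. Of the 76 points, 57 lie within 100 bp of the TSS, and 12 lie more than 300 bp away, with Mrpl48 the farthest at 913 bp.

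Of the 12 members with a summit more than 300 bp from the TSS, FLI1 was called at 10, with a median of 3.89. Their ratios reached down to 1.14, at Mrps24. FLI1 was called at 37.3% of all genes, but the share over all genes with a summit this far away was not counted. In 4 of them the summit was within 200 bp of a start of another gene, and in 3 it was within 100 bp of another start of the same gene. Mrpl39 belonged to neither set, with its summit 442 bp into the gene.

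The mean profile around the TSS showed the same placement. In the 50 bp before the TSS, FLI1 density was 18.6 times the genome-wide rate at MRP genes, 10.02 at other CpG-rich starts and 6.07 over all genes. RUNX1 in the same bin was 5.59, 4.60 and 2.95 times its own rate, from 33 reads at the MRP genes. Input there was 1.55, 0.87 and 1.03 times. In the bin from 100 to 149 bp downstream, input reached 2.32 at MRP genes from 75 reads, and 1.17 at other CpG-rich starts. Input was thus uneven around the TSS and higher at MRP genes than at other CpG-rich starts, and its part in the ratios was not tested beyond the values without input given in the closing section.

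**Figure D3:**
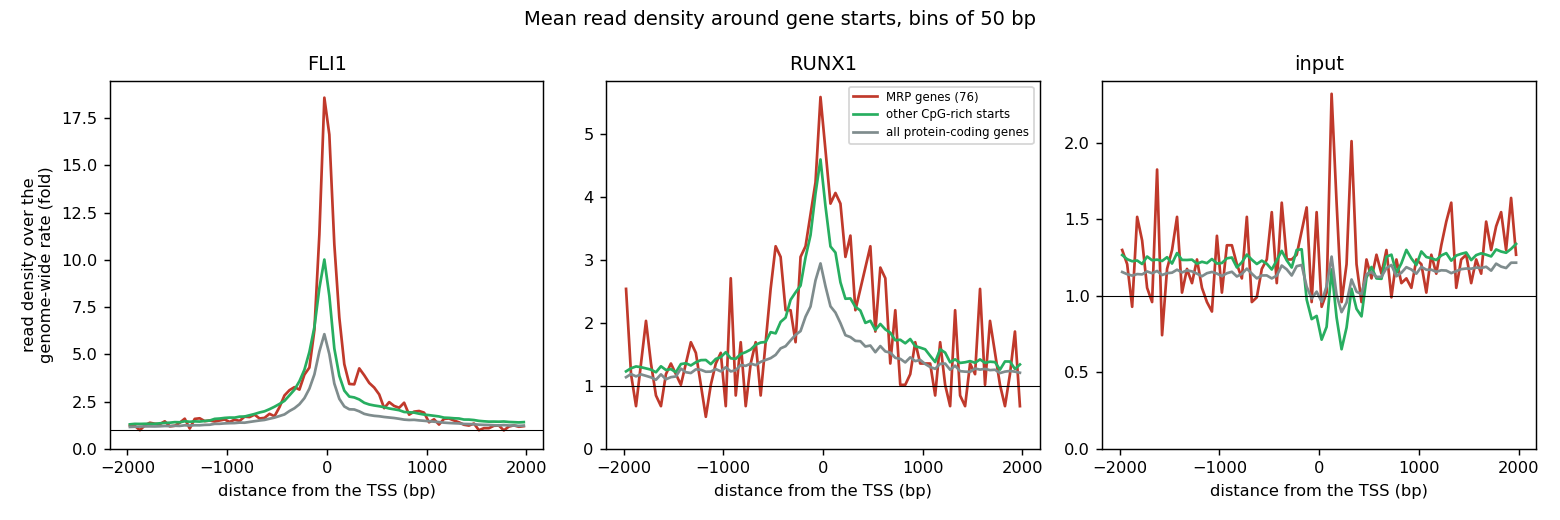
Mean read density in bins of 50 bp around the TSS over the genome-wide rate of each library, for FLI1, RUNX1 and input, at the 76 MRP genes, at other CpG-rich starts and at all protein-coding genes. FLI1 at the MRP genes peaks at 18.6 times in the 50 bp before the TSS, while the RUNX1 and input lines of the MRP genes are jagged because few reads fall in a bin.

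Farther out the libraries were alike. At 5 to 10 kb from the TSS the MRP genes had 1.24 times the genome-wide rate of FLI1, 1.21 times that of RUNX1 and 1.33 times that of input. The density within 1 kb over that at 5 to 10 kb was 3.19 for FLI1, 2.02 for RUNX1 and 0.949 for input. For FLI1 the corresponding values were 2.52 at other CpG-rich starts and 1.97 over all genes. These are reads summed over each group of genes, with no value per gene.

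Sequence around the TSS was searched from 250 bp upstream to 50 bp downstream, on both strands. CCGGAAG was present at 27 of 76 members (35.5%, 95% interval 24.9 to 47.3), against 10.8% of all genes and 19.0% of CpG-rich starts. The shorter core CGGAA, which every CCGGAAG contains, was present at 73.7% of members, 34.1% of all genes and 52.4% of CpG-rich starts. The 27 members held 31 copies of CCGGAAG, 14 on the gene strand and 17 on the opposite strand. Their median position was 9 bp upstream of the TSS (−9), and 28 of the 31 lay within 100 bp of it. There were 4 members with 2 copies and 0 with more.

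Members with CCGGAAG around the TSS had higher FLI1 values than the others. FLI1 was called at 24 of 27 (median 3.82) with the letters and at 34 of 49 (median 2.73) without. Among CpG-rich members, 18 of 19 with the letters were called (median 4.01) and 24 of 36 without (median 2.55). Over all CpG-rich starts the same split gave 88.9% called with a median of 3.85, and 55.1% with a median of 2.18. The corresponding shares of CpG-rich members were 94.7% with and 66.7% without the letters. With CCGGAAG within 50 bp of the summit, 23 of 25 members were called (median 3.83), against 35 of 51 without (median 2.68). Of those 51, 26 had the core CGGAA there.

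Other motifs were searched in the same window. GCATGCGC, a motif of NRF1, was present at 7 members (9.21%, 95% interval 3.78 to 18.1), against 3.30% of all genes and 5.98% of CpG-rich starts, and FLI1 was called at all 7. AAGATGG, a motif of the zinc-finger factor YY1, was present at 13 members (17.1%, 9.43 to 27.5), against 6.73% of all genes and of CpG-rich starts alike, and FLI1 was called at 8 of the 13 (61.5%, median 2.46), below the 76.3% of all members. GGGCGGG, a motif of the SP and KLF families, was present at 28 members (36.8%), against 31.8% of all genes and 57.1% of CpG-rich starts, and FLI1 was called at 20 of the 28 (71.4%). RUNX letters (TGTGGT or TGCGGT) were present at 17 members (22.4%), against 21.5% and 19.6%, with FLI1 called at 14 of the 17 (82.4%), and TGACTCA, the letters of AP-1 and NF-E2, at 2 members (2.63%), against 4.42% and 2.35%. ETS, YY1 and NRF1 letters were thus more frequent at MRP starts than in both backgrounds, but the interval of NRF1 includes the share of CpG-rich starts. The shares of RUNX letters lay close together. FLI1 was called at 37.3% of all genes and 61.6% of CpG-rich starts. Calls over all starts with the NRF1, YY1, SP and KLF or RUNX letters were not counted. A relation of these letters to FLI1 was therefore not tested.

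RUNX1 was above input at MRP gene starts, by a summed ratio whose interval includes the value for CpG-rich starts. Summed over the 76 windows, 579 RUNX1 reads and 1631 input reads gave a ratio of 1.94 (95% interval 1.76 to 2.14), against 1.51 over all genes (1.50 to 1.52) and 1.97 over CpG-rich starts (1.96 to 1.99). RUNX1 reached 2-fold at 35 of 76 members (46.1%), against 29.2% of all genes and 45.6% of CpG-rich starts. Its interval lay above 1 at 24 of 76 (31.6%), against 16.7% and 29.1%. The share of members is thus near that of CpG-rich starts by either rule.

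The RUNX1 counts of single members were small. The most RUNX1 reads were at Mrps18b, with 19 (4.16-fold, 2.17 to 7.86), at Mrps28, with 15 (3.57-fold, 1.73 to 7.14), and at Mrpl9, with 14 (3.65-fold, 1.72 to 7.52). Mrps24 had 0 RUNX1 reads, which allows a ratio of up to 0.69. Below input were 10 of the 76 members, against 8015 of 21486 genes tested and 1999 of 9876 CpG-rich starts. Mrps18b was high for both factors, whereas Mrpl9 had only 2.11-fold FLI1. Both ends of a DNA fragment may be present among the reads, so these intervals can be too narrow.

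By subunit, the summed RUNX1 ratio was 1.92 (1.70 to 2.17) for the large and 1.98 (1.69 to 2.31) for the small subunit. It was 2.45 (2.01 to 2.99) for members with a divergent partner and 1.81 (1.62 to 2.02) for the others. The value for all CpG-rich starts with a divergent partner, 2.15 (2.11 to 2.21), lies inside the first of these intervals. It was 2.08 (1.86 to 2.33) for CpG-rich members and 1.60 (1.32 to 1.94) for the rest. Within 150 bp of the FLI1 summit, RUNX1 density was 4.93 times its genome-wide rate at MRP genes, from 175 reads. It was 3.80 times at other CpG-rich starts and 2.75 times over all genes. These values are not divided by input, which at the same positions was 1.36, 1.17 and 1.24 times its own rate, highest at MRP genes. RUNX letters lay within 50 bp of the FLI1 summit at 7 of 76 members, against 9.56% of all genes.

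FLI1 and RUNX1 were compared directly, which leaves the input out. The summed FLI1 over RUNX1 ratio was 1.61 (1.48 to 1.75) at the members, against 1.28 over all genes and 1.39 over CpG-rich starts. Across the 76 members, Spearman's rho between FLI1 and RUNX1 reads was 0.23, against 0.63 over all genes tested. Between the 2 ratios it was 0.45, against 0.65 over all genes tested, but these share the input count. The factors' order of members was therefore only loosely alike. The part of RUNX1 depth, or of the range that the members span, in this was not tested.

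Other genes of mitochondrial translation, from a list fixed by name, had FLI1 values in the same range as the MRP genes. The list holds translation factors, assembly factors, tRNA-modifying enzymes, mitochondrial aminoacyl-tRNA synthetases, the mitochondrial transcription machinery and 6 mitochondrial ribosomal proteins with symbols of another form (Dap3, Ptcd3, Gadd45gip1, Chchd1, Aurkaip1 and Ict1). FLI1 reached 2-fold at 36 of these 44 genes with a median of 2.85. All 6 ribosomal proteins were called, from 2.82-fold at Chchd1 to 6.74-fold at Aurkaip1, and without them 30 of 38 genes were called with a median of 2.60. The highest were Tfam, the mitochondrial DNA packaging and transcription factor (272 FLI1 and 10 input reads, 9.40-fold), Tufm, the mitochondrial elongation factor Tu (258 and 10, 8.91-fold), and Mtrf1l, a release factor (257 and 13, 6.83-fold). The lowest were Mtrf1, a relative of that release factor (66 and 15, 1.52-fold), and the tRNA synthetase genes Aars2 (123 and 30, 1.42-fold) and Vars2 (97 and 25, 1.34-fold).

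Other gene groups with housekeeping roles were set beside them. FLI1 was called at 78 of 83 cytosolic ribosomal protein genes (94.0%, median 3.90), at 40 of 50 proteasome subunit genes (80.0%, median 3.19) and at 58 of 87 nuclear respiratory chain genes (66.7%, median 2.50). The MRP genes, at 76.3%, thus lay between the respiratory chain and the cytosolic ribosome, and near the proteasome. The summed RUNX1 ratios of the 4 groups ran from 1.78 for the respiratory chain to 2.07 for the cytosolic ribosome. The summed FLI1 over RUNX1 ratio was 1.99 for cytosolic ribosomal protein genes, against 1.61 for the MRP genes.

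**Figure D4:**
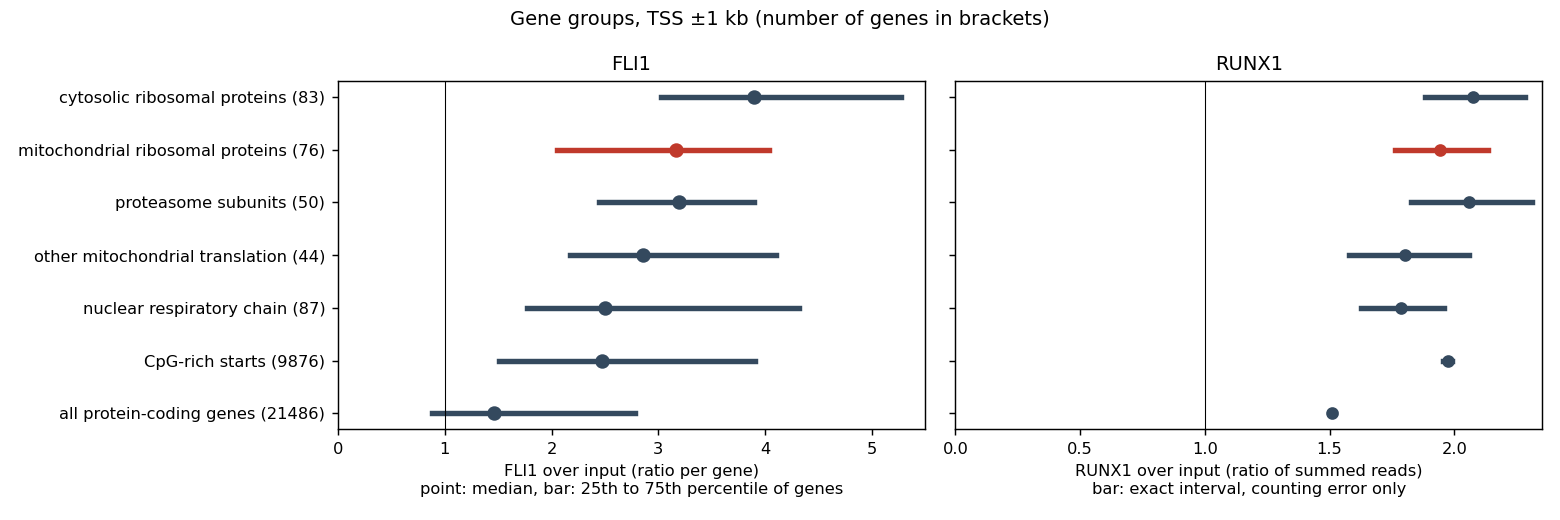
FLI1 over input per gene (left, point for the median, bar from the 25th to the 75th percentile of genes) and RUNX1 over input from summed reads (right, bar for the 95% exact counting interval) for MRP genes, other gene groups, CpG-rich starts and all protein-coding genes. The MRP median for FLI1 is 3.16, against 3.90 for cytosolic ribosomal proteins and 1.46 for all genes, while the RUNX1 values of MRP genes and CpG-rich starts, 1.94 and 1.97, overlap.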

How the data were processed

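The 3 libraries were sequenced on an Illumina HiSeq instrument. With Bowtie (version not given in the sources used here) the authors aligned to mm9, kept unique reads and deposited the position of each read, as 50 bp reads for FLI1 and RUNX1 and 34 bp reads for input, with no counts or normalized values. The submitters' processing notes also name MACS 1.4 and SICER 1.1, whose output was not used here. FLI1 and RUNX1 chromatin was sonicated, while for the input the labels give sonication and the study's methods digestion with micrococcal nuclease. The part of this in the ratios to input was not tested. The labels and the methods also differ on library kit and embryonic day.

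Reads were moved 75 bp in the 3′ direction and counted within 1 kb of the 5′ end of each GENCODE M1 gene record, without mitochondrial reads. Repeated input positions (3.24% of reads) were counted once, leaving 62946422 FLI1, 3973856 RUNX1 and 21745220 input positions. Ratios are of reads scaled to these totals, for genes with at least 3 input reads. Intervals are exact (Clopper-Pearson) at 95%, and a call is 2-fold or more. Of the reads compared with the NCBIM37 (mm9) genome, 96.6% (FLI1) and 96.2% (RUNX1) matched within 2 mismatches, and sequences were read from that genome. Counting was tested on simulated data. Python 3.11.15, numpy 2.4.6, scipy 1.17.1 and pandas 2.3.3 were used.

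The members and lists were chosen with earlier results of these data known. Named genes were the 10 highest and 5 lowest members by FLI1 ratio, the 3 with the most RUNX1 reads, members below 2-fold whose CpG or motif status is given, and the 3 highest and 3 lowest other mitochondrial translation genes. Other members were named after their values were seen, to illustrate a position, a partner or a summit. Alternatives changed the window, shift, input handling, minimum, fold, background, depth, start, motif and summit settings.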

Additional observations from a re-analysis of the deposited data

How the results depend on the processing

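No paired analysis was possible because each antibody has 1 library, and for the same reason no library could be left out. No result reversed. The count of members with FLI1 at 2-fold, 58 of 76, ran from 39 to 73 over 11 alternatives, among them 67 within 500 bp, 41 within 2 kb, 39 at 3-fold and 51 after FLI1 reads were drawn down to the depth of RUNX1. It was 20 of 71 with RUNX1 as the reference, and 36 of 47 among members with no other gene start in the window, an alternative added after the data were seen, which by construction has fewer members. The difference from the background, 39.1 percentage points, was 57.4 without input, 14.7 against CpG-rich starts and 12.8 with RUNX1 as the reference. For RUNX1, the 35 members called became 48 within 500 bp, 47 without input, 16 within 2 kb and 15 at 3-fold. With no other start in the window, RUNX1 was called at 20 of 47. Its difference of 16.8 points became 4.36 within 2 kb, 26.1 within 500 bp, 6.62 at 3-fold, 31.9 without input and 0.447 against CpG-rich starts. Its summed ratio of 1.94 became 2.45 within 500 bp, 1.49 within 2 kb and 2.45 without input. The 25 members with ETS letters at the summit became 51 with the core CGGAA, a rise from 32.9% to 67.1% of members while the share over all genes rose from 11.2% to 27.6%. The cause of these shifts was not tested. RUNX1 depth, with a median of 7 reads per window, limits statements on single members.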
